A study of Sorghum bicolor and Setaria italica and Zea mays with 20 samples.

Results

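Very broad DNaseI-hypersensitive sites (DHSs) of *Z. mays* called both in strands of bundle sheath and in the whole leaf are described here. A DHS was included where it lay on chromosomes 1 to 10, was at least 5000 bp wide and overlapped by at least 1 bp a DHS of at least 5000 bp of the other tissue. The lists held 1766 such DHSs in bundle sheath (BS) and 1765 in whole leaf (WL), or 3531 of the 281868 DHSs listed for all species and tissues of the series. They formed 1767 overlapping pairs, of which 1761 joined 1 BS DHS to 1 WL DHS, and 1764 separate regions once overlapping DHSs were joined. The DHSs were thus chosen by their width and by their overlap between tissues, so both are given only as a description.

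The series covers whole leaves of 4 grasses and bundle-sheath strands of 3 of them. For *Z. mays* there were 2 BS samples and 2 WL samples, both from plants of 18 d, taken in the light period between 4 and 6 h after it began. No genotype, transgene or treatment separated the groups. BS strands were obtained mechanically, by shearing leaves in a blender and filtering, and plants were pooled. Bundle-sheath cells are also part of the whole-leaf material. The cell makeup of the strands was not measured here. The authors combined the samples of each tissue before deposit, so each tissue is 1 list and no value below has a replicate error or a test. Intervals are 95% intervals that cover counting error over listed items only (Wilson for shares, exact Poisson for densities, order statistics for medians). Read depth is not in the lists.

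The WL footprints may have been called on another DHS list than the one used here. The names in the WL footprint list are numbered from 32407, fewer than its 43868 DHSs, whereas those in BS are numbered from 48889, 1 more than its 48888 DHSs. On the numbered chromosomes 97.9% of WL footprints and 100% of BS footprints had their midpoint in a DHS of the list. Some listed WL DHSs may therefore not have been searched for footprints, so a WL DHS without one is a DHS for which none was listed, and WL densities and differences from BS in footprints carry the same limit.

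DNaseI cuts DNA most readily where it is not wrapped in nucleosomes, and a stretch with many cuts is called a DHS. Within a DHS a bound protein shields a short sequence from the enzyme, and such a protected stretch is a digital genomic footprint (DGF). DHSs are typically found at promoters, enhancers and other regulatory DNA. In a leaf that uses C4 photosynthesis the mesophyll takes up CO2 first and the bundle sheath around the veins completes its fixation in the Calvin cycle, so the tissues use different sets of photosynthesis genes.

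The broad DHSs were few but covered much of the open sequence. They made up 3.64% of the 48547 BS DHSs and 4.05% of the 43539 WL DHSs on the numbered chromosomes. They covered 11.4 Mb in BS and 11.2 Mb in WL, or 11.1% and 11.7% of the sequence in DHSs, and held 12.5% of BS footprints and 12.9% of WL footprints. Their width had a median of 6106 bp in BS and 6042 bp in WL, and reached 12566 bp in BS and 12837 bp in WL. Of the DHSs of at least 5000 bp, 63.1% in BS (1766 of 2800) and 67.7% in WL (1765 of 2606) had a partner of that width. Beside the threshold, the narrowest BS DHS chosen (chr1:3272159-3277158, 5000 bp) held 14 footprints, and the widest one left out (chr1:67732520-67737518) held 6. The next 2 held 6 and 10 inside the threshold and 12 and 9 outside it. In WL the narrowest chosen (chr1:221538640-221543639, 5000 bp) held 6 footprints, and the widest left out (chr7:172154674-172159672) held 0. The next 2 held 5 and 0 inside and 5 and 11 outside, so the numbers on either side overlapped in both tissues.

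Great width did not go with an exceptional peak height. The fold enrichment of the signal over local background at the summit, as the authors' peak caller gave it, had a median of 9.03 in the BS members and 10.6 in the WL members. Over all DHSs of each list the medians were 8.03 in BS and 9.44 in WL. In narrower DHSs, those of 2000 to under 5000 bp that overlapped any DHS of the other tissue (14964 in BS and 14650 in WL), the medians were 9.02 and 10.6. Of the broad DHSs, 10.2% in BS and 8.33% in WL stood in the highest 10% of their list by fold enrichment. Another 30.3% in BS and 32.9% in WL stood in the lower 50%. The highest values among the broad DHSs were 17.6 in BS (chr5:161230712-161236398) and 23.4 in WL (chr7:106982160-106988142), against 51.0 and 49.0 over the whole lists. Over the 1761 1-to-1 pairs, Spearman's rho between the tissues was 0.669 for fold enrichment and 0.661 for width, among DHSs that had been chosen for width in both.

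The broad DHSs occurred on every chromosome and lay singly. Pairs numbered between 0.702 per Mb on chromosome 8 (123 pairs) and 1.04 per Mb on chromosome 1 (314 pairs). In the outer 40% of chromosome length, 20% at each end, lay 51.3% (49.0 to 53.6) of the BS members, against 45.4% of all BS DHSs. For WL the values were 51.2% (48.9 to 53.5) of the members and 49.1% of all DHSs. The middle 20% held 11.4% (10.0 to 13.0) of the BS members, against 16.6% of all BS DHSs, and 11.4% (10.0 to 13.0) of the WL members, against 14.4% of all WL DHSs. Their density was 1.1 per Mb in the outer part and 0.490 per Mb in the middle in either tissue. The narrower shared DHSs were placed much alike, with 50.2% in the outer part and 13.1% in the middle in BS, and 50.0% and 13.1% in WL.

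Most broad DHSs stood far from any other DHS. The distance to the nearest DHS of the same list had a median of 22515 bp for BS members and 22326 bp for WL members. Among narrower shared DHSs it was 4042 bp in BS and 4313 bp in WL. A DHS within 1 kb was found for 17.6% of the BS members and 16.8% of the WL members, against 26.6% of all BS DHSs and 28.1% of all WL DHSs. No 2 DHSs of 1 list lay closer than 180 bp in BS or 165 bp in WL. From 1 broad region to the next the median distance was 350842 bp, and 15.8% had another within 100 kb. Of 2063 bins of 1 Mb, 918 held none, 703 held 1 and 37 held at least 4. The highest number was 5, as at chr2:27000001-28000000 and chr3:170000001-171000000. The 1 couple within 10 kb of each other, chosen after its values were seen, was chr3:181017713-181024002 and chr3:181024177-181029454, with 174 bp between them.

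The outlines of the broad DHSs were nearly the same in both tissues. In 1-to-1 pairs the left edges were a median of 93 bp apart (85.0 to 101) and the right edges 65 bp (58.0 to 72.0). Both tissues covered a median of 95.6% of the sequence that either covered. In the 11191 1-to-1 pairs of narrower shared DHSs these values were 70 bp, 55 bp and 94.2%. Narrower pairs in which either DHS met any further DHS were left out. Broad pairs were 1-to-1 among DHSs of at least 5000 bp only, so the sets are not chosen alike. Both edges were within 100 bp in 32.0% of the broad pairs (564 of 1761), and in 1 pair both edges were identical. An edge differed by over 1000 bp in 18.5%, and both edges did in 2.39%. The WL DHS lay inside the BS DHS in 26.6% of pairs and the BS DHS lay inside the WL DHS in 20.6%. The BS DHS was the wider in 55.1% (52.8 to 57.4), by a median of 26 bp over all pairs. Stretches called in 1 tissue beyond the edge of the other held fewer footprints than the DHSs as a whole, with 0.774 per kb (0.710 to 0.841) in BS and 0.403 per kb (0.352 to 0.460) in WL. Such stretches lie at the ends of DHSs, where footprints were few in general. The outermost 100 bp of members held 0.0170 per kb on the left and 0.651 on the right in BS, and 0.0113 and 0.346 in WL. No more is read from the lower density. The pair with the shortest common stretch, 461 bp, was chosen after its values were seen: the BS DHS was chr1:43555996-43561342, against chr1:43550987-43556456 for the WL DHS.

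**Figure D1:**
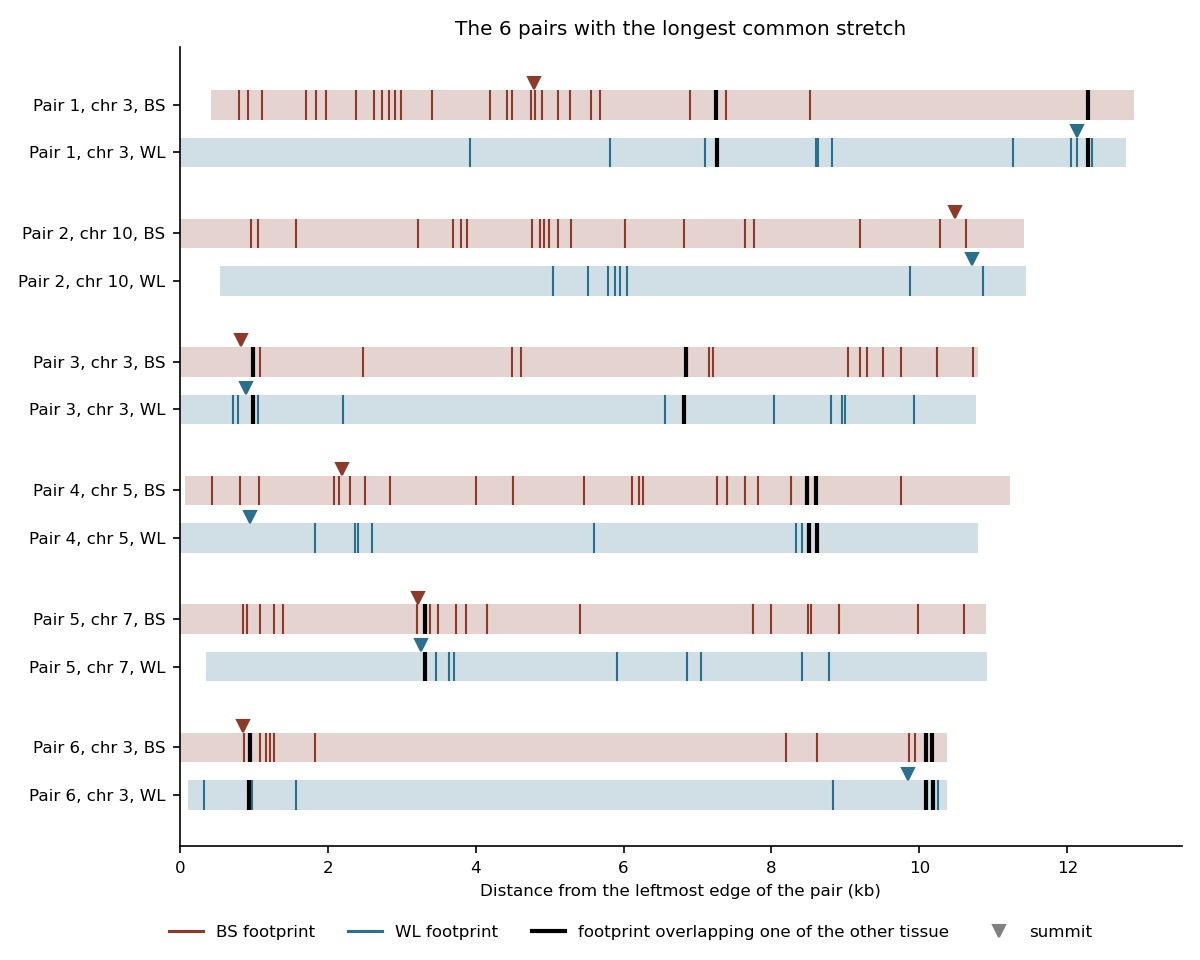
Map of the 6 pairs with the longest common stretch, drawn in kb from the leftmost edge of each pair, with the BS DHS above the WL DHS. Shaded bars are DHSs, vertical lines are footprints, black lines are footprints that overlap one of the other tissue, and triangles are summits. Pair 1 has 28 BS and 12 WL footprints with 2 shared, and in pair 6 the summits stand at opposite ends.

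The longest common stretch ran for 12368 bp on chromosome 3 (chr3:200767418-200779901 in BS, chr3:200766997-200779785 in WL). It held 28 footprints in BS and 12 in WL, of which 2 overlapped, and its summits lay 7344 bp apart. Its fold enrichment was 7.10 in BS and 8.57 in WL, each below the median of the broad DHSs. The second, on chromosome 10 (chr10:123388099-123399516 in BS, chr10:123388641-123399544 in WL), had 20 BS and 8 WL footprints with none shared, although its summits were 231 bp apart. The other 4 in the map of the longest pairs had 13 to 22 footprints in BS and 8 to 12 in WL, and shared 1 to 3.

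Summits, the positions of highest signal, were less often in the middle of broad DHSs than in the middle of narrower ones. In BS 28.4% (26.4 to 30.6) of members had the summit in the central one of 3 equal parts, against 46.2% of all BS DHSs. In WL 23.3% (21.4 to 25.3) of members did, against 44.8% of all WL DHSs. An even spread would give the 3 parts equal shares, and the left and right parts held 38.3% and 33.2% in BS and 39.7% and 37.0% in WL. Under 2000 bp the first of 10 parts held only 0.687% of summits in BS and 0.552% in WL. Relative positions are thus not alike across widths, and what width alone contributes was not tested. The narrower shared DHSs lay between, with 39.9% in BS and 37.5% in WL. The share fell with width throughout, to 21.8% in BS and 19.5% in WL at 8000 bp or more, against 58.1% in BS and 60.2% in WL under 1000 bp. When each broad DHS was divided into 10 equal parts, summits were most frequent in the second part, with 15.2% in BS and 14.1% in WL, and in the ninth, with 12.4% in BS and 13.7% in WL. The 2 central parts held 7.98% and 8.55% in BS and 6.01% and 6.06% in WL. The summit stood a median of 1396 bp (1334 to 1469) from the nearer edge in BS and 1206 bp (1145 to 1279) in WL.

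**Figure D2:**
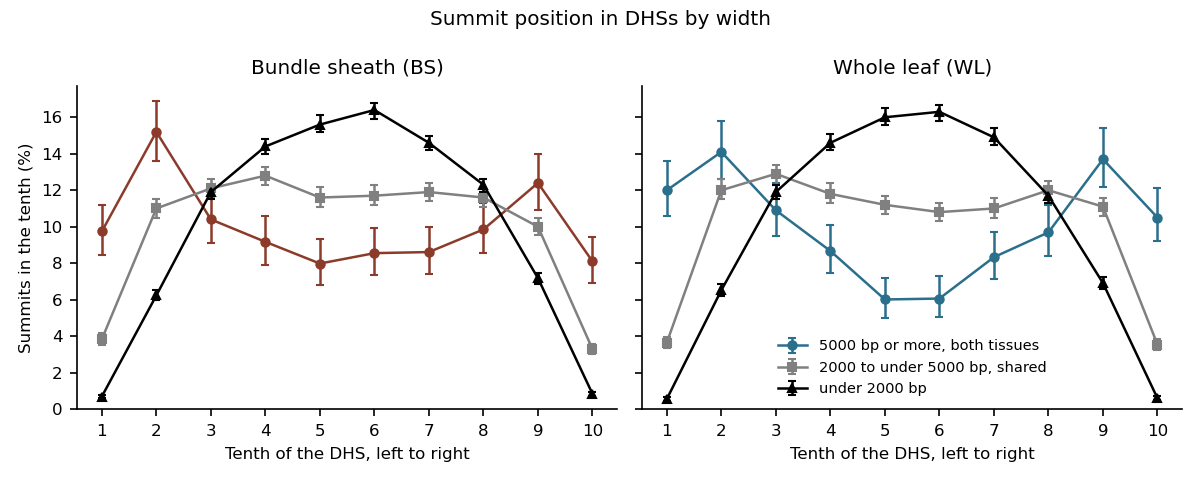
Share of DHSs (%) with their summit in each of 10 equal parts from left to right, in BS (left) and WL (right), with 95% Wilson intervals. Circles are the broad DHSs of both tissues, squares are shared DHSs of 2000 to under 5000 bp and triangles are DHSs under 2000 bp. The broad DHSs have 2 maxima, in parts 2 and 9, where the narrowest have a single central one.

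Most broad pairs had both summits on the same side of the midpoint of their DHSs, in 72.6% (70.4 to 74.6) of 1-to-1 pairs. In others the summits lay far apart. In the 1761 1-to-1 pairs the summits were a median of 329 bp apart (275 to 399), against 178 bp (170 to 188) in narrower pairs. They were at most 150 bp apart in 39.6% of the broad pairs (37.3 to 41.9) and in 47.0% of narrower ones, and over 1000 bp apart in 33.8% (31.7 to 36.1) and 14.3%. The narrower DHSs leave less room for a large distance. Narrower pairs in which either DHS met any further DHS were also left out, unlike such broad pairs. In 15.9% of broad pairs the distance was over 3000 bp, and in 9 pairs both summits were at the same base. Where summits were over 1000 bp apart, the BS summit was on the left in 53.2% (49.2 to 57.2). The largest distance was 9141 bp on chromosome 2, with the summit at 50604345 in the BS DHS (chr2:50603664-50613950) and at 50613486 in the WL DHS (chr2:50605425-50613825). A DHS on chromosome 3 with nearly the same outline in both tissues (chr3:89048309-89058678 in BS, chr3:89048420-89058681 in WL) had its summits 8996 bp apart. Its fold enrichment was 11.9 in BS and 14.5 in WL. By contrast, the BS DHS chr1:2218714-2225573 and the WL DHS chr1:2218677-2224605 had their summit at the same base, 2219123.

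Footprints were denser around a tissue's own summit than around that of the other tissue. In the 596 pairs with summits over 1000 bp apart, BS footprints numbered 4.22 per kb (3.99 to 4.46) within 250 bp of the BS summit and 2.95 per kb (2.75 to 3.16) within 250 bp of the WL summit. WL footprints numbered 2.25 per kb (2.09 to 2.43) at their own summit and 1.09 per kb (0.972 to 1.22) at the BS summit. Where the summits were at most 150 bp apart, the density at the own summit was higher, with 5.39 per kb in BS and 3.13 per kb in WL. The summits and footprints of a tissue were called from reads of the same samples. What the number of reads at a summit adds to these densities was not tested.

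Broad DHSs held many footprints, at a density above that of narrower shared DHSs when all DHSs were counted and below it when only DHSs with a footprint were. The BS members held 20499 footprints and the WL members 9989. A member held a median of 11 footprints in BS and 6 in WL, up to 28 in BS and 17 in WL. The density was 1.80 per kb (1.78 to 1.83) in BS members, against 1.74 per kb (1.73 to 1.75) in narrower shared DHSs and 1.60 per kb in all BS DHSs. In WL it was 0.890 per kb (0.873 to 0.908) in members, against 0.859 per kb (0.850 to 0.867) in narrower shared DHSs and 0.810 per kb in all WL DHSs. Among DHSs with at least 1 footprint the order was the other way, with 1.82 per kb (1.80 to 1.85) in BS members, against 1.91 per kb in narrower shared DHSs and 1.95 per kb in all BS DHSs. In WL this density was 1.0 per kb (0.983 to 1.02) in members, against 1.16 per kb in narrower shared DHSs and 1.21 per kb in all WL DHSs. Asking for a footprint leaves out 9.47% of the narrower shared DHSs in BS and 27.6% in WL, against 1.13% and 11.6% of the members. It thus raises the density of the narrower class more, and no more is read from the reversed order. The BS list was the longer, with 164918 footprints against 79787 in WL. With as many of the strongest BS footprints as the WL list holds, the density in BS members was 0.967 per kb, against 0.869 per kb in narrower shared DHSs. Tissue, list length and read depth cannot be told apart here. Across the 10 chromosomes the density in members lay between 1.74 and 1.86 per kb in BS and between 0.859 and 0.953 per kb in WL. Of the 1761 pairs, 1588 had more footprints in BS, 109 had more in WL and 64 had equal numbers.

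The number of listed footprints went more with width than with peak confidence in BS, and the other way round in WL. Over the members, Spearman's rho of footprint number with width was 0.514 in BS and 0.245 in WL, and with the authors' −log10 q-value, which grows with the confidence of a peak, it was 0.0840 in BS and 0.472 in WL. Between the tissues, rho of the footprint number over the pairs was 0.180, against 0.669 for fold enrichment. Neighbouring footprints in a member were a median of 227 bp apart in BS and 226 bp in WL, midpoint to midpoint. The longest stretch without a footprint had a median of 1845 bp in BS and 3009 bp in WL. The pair on chromosome 3 with 28 BS footprints over 9031 bp (chr3:172483466-172492496) reached 3.10 per kb in BS, whereas its WL DHS (chr3:172483427-172492522) held 8, or 0.880 per kb. The pair with the most even numbers among the richest had 18 BS footprints (chr1:176864644-176871603) and 16 WL footprints (chr1:176864669-176871658), of which 3 overlapped, and its summits were 1 bp apart.

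A small group of broad DHSs had no listed footprint, and in BS none held only 1 or 2. At least 1 footprint was listed in 71.4% of all BS DHSs and 55.8% of all WL DHSs. Most of these are narrower than the members, and a wider DHS has more room for a footprint, so no more is read from the difference. Among the members, 20 of 1766 in BS (1.13%, 0.734 to 1.74) and 205 of 1765 in WL (11.6%, 10.2 to 13.2) held none. In BS 0 members held 1 or 2 footprints, which allows a share of up to 0.170%, and 2 held 3. In WL 25 members (1.42%) held 1, 70 (3.97%) held 2 and 140 (7.93%) held 3, so that none was more frequent than 1, 2 or 3 when each number is taken singly, but less frequent than these together. The WL members without a footprint had a median −log10 q-value of 17.1 (16.0 to 17.6), against 32.4 (31.6 to 33.2) in those with one, and a median width of 5883 bp against 6067 bp. In the 1/5 of WL members with the lowest −log10 q-values 44.2% held none, and 9.92%, 2.83%, 0.850% and 0.283% in the groups above it, in rising order of −log10 q-value. In BS these shares were 4.52% and 1.13%, with 0 of 353 in each of the others, which allows up to 0.850%. The WL members with a footprint in that lowest group still held a median of 5 (4 to 5), at 0.781 per kb. Most sequences with no footprint listed in WL held footprints in BS. The partners of the 205 WL members held 1.67 BS footprints per kb (1.60 to 1.74), against 1.82 per kb (1.79 to 1.85) in the partners of the others. In 10 pairs neither tissue had a footprint. With as many of the strongest BS footprints as the WL list holds, 70 BS members (3.96%) held none.

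**Figure D3:**
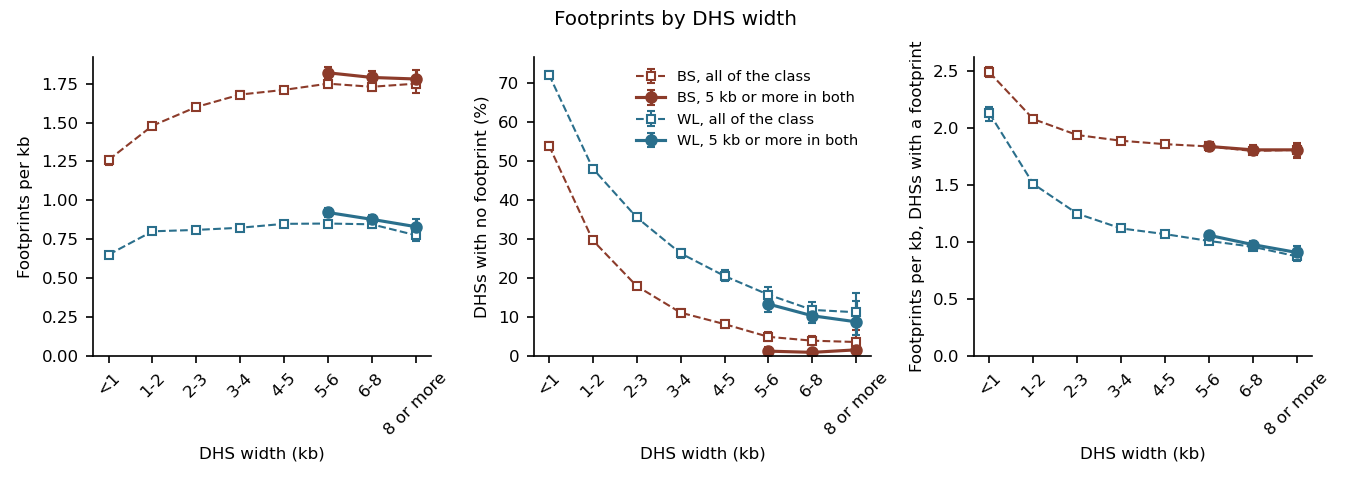
Footprints per kb (left), share of DHSs with no footprint (%, middle) and footprints per kb in DHSs with a footprint (right) by DHS width in kb, with 95% intervals. Open squares are all DHSs of a width class and filled circles are the DHSs of at least 5 kb in both tissues. Over all DHSs of a class the share with no footprint falls with width, and it is 1.13% of all BS members and 11.6% of all WL members. Wider DHSs have more room to hold at least 1 footprint.

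The longest common stretch with no listed footprint in either tissue was on chromosome 2 (chr2:68727451-68735947 in BS, chr2:68729457-68735930 in WL), 6474 bp with fold enrichments of 6.85 in BS and 7.09 in WL. The others named by the same rule were on chromosome 10 (chr10:85852926-85858268 in BS), chromosome 1 (chr1:277376098-277381409 in BS) and chromosome 2 (chr2:164565967-164571426 in BS).

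Footprints were spread along the whole length of broad DHSs, with a peak at the summit. Within 250 bp of the summit the density was 4.83 per kb (4.69 to 4.98) in BS, and it was 2.74 per kb at 250 to 500 bp and 1.38 per kb at 1500 to 2000 bp. Farther out it changed little, with 1.32 per kb at 4000 to 6000 bp. In WL the densities were 2.77 per kb (2.66 to 2.88) within 250 bp, 0.602 per kb at 1500 to 2000 bp and 0.624 per kb at 4000 to 6000 bp. Narrower shared DHSs were lower at each distance, with 3.97 per kb within 250 bp and 0.967 per kb at 1500 to 2000 bp in BS, and 2.18 and 0.443 per kb in WL. More of them had no footprint, 9.47% against 1.13% of members in BS and 27.6% against 11.6% in WL. Sequence far from their summit also lies nearer to an edge, where footprints were few. What these add to the difference was not tested. The 250 bp on either side of the summit held 20.8% of the BS footprints of members on 7.75% of their sequence, and 24.4% of the WL footprints on 7.85%. Here too, summits and footprints came from reads of the same samples.

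**Figure D4:**
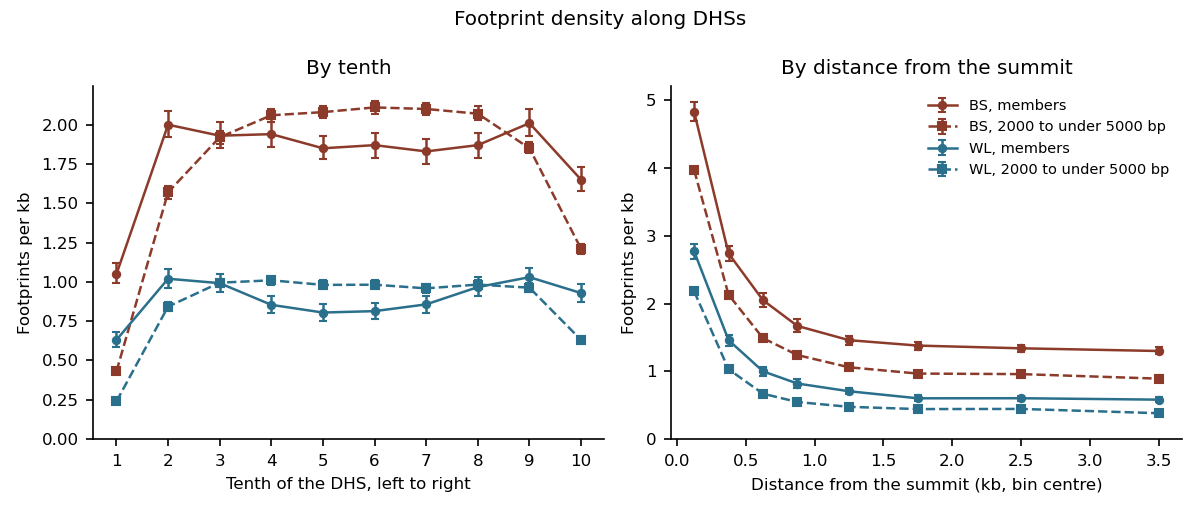
Footprints per kb in 10 equal parts of DHSs from left to right (left) and by distance from the summit in kb (right), with exact 95% Poisson intervals. Solid lines with circles are broad DHSs, dashed lines with squares are shared DHSs of 2000 to under 5000 bp. From part 2 to part 9 of broad DHSs the density dips slightly towards the centre in BS and more in WL, and it is lowest in part 1.

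Between the ends the profile of the broad DHSs dipped slightly towards the centre in BS and more in WL. In parts 2 to 9 of 10 the BS density lay between 1.83 and 2.01 per kb. It was 2.00 per kb (1.92 to 2.09) in part 2 and 2.01 per kb (1.93 to 2.10) in part 9. The 2 central parts held 1.85 (1.78 to 1.93) and 1.87 per kb (1.79 to 1.95), and part 7 held 1.83 per kb (1.75 to 1.91). In WL it was 1.02 per kb (0.964 to 1.08) in part 2 and 1.03 per kb (0.973 to 1.09) in part 9, with 0.805 (0.754 to 0.860) and 0.814 per kb (0.762 to 0.868) in the 2 central parts. Narrower shared DHSs had no such dip, with 0.981 per kb in WL in part 5. The ends were unlike each other. Part 1 was the poorest in footprints in both tissues. Part 10 was poorer than parts 2 to 9 in BS, but in WL it was above the 2 central parts. Part 1 held 1.05 per kb in BS and 0.631 per kb in WL, against 1.65 and 0.929 per kb in part 10. In the first 100 bp from the left edge BS members had 3 footprints and WL members 2, against 115 and 61 in the last 100 bp at the right edge. The difference between left and right was also present in narrower shared DHSs, with 0.431 per kb in part 1 and 1.21 per kb in part 10 in BS, so it was not particular to broad DHSs.

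Most footprints in the common sequence of a broad pair had no listed footprint of the other tissue at the same place. The paper reports that footprint discovery in maize did not reach saturation and that a maize library had low complexity. A footprint missing from either list counts as not shared here, so on that account the shares may be too low. Overlaps of 1 bp or more can also arise by chance, which raises the shares, and how many did so was not tested. The common stretches summed to 10.7 Mb and held 19946 BS and 9766 WL footprints, which covered 4.26% and 2.14% of it. Of these, 1662 in each tissue overlapped a footprint of the other by at least 1 bp. That was 8.33% (7.96 to 8.72) of the BS footprints, against 9.22% over all DHS pairs, and 17.0% (16.3 to 17.8) of the WL footprints, against 19.0% over all DHS pairs. In narrower shared pairs the shares were 9.0% in BS and 18.7% in WL. With equal numbers of footprints in both lists the members' shares were 10.0% in BS and 11% in WL, and with an overlap of at least 50% of both footprints they were 4.62% and 9.44%. Only 28 footprints had the same start and end in both tissues. The share was highest at the summit, with 13.5% (12.5 to 14.6) of BS footprints within 250 bp of the BS summit and 6.08% (5.54 to 6.66) at 2000 bp or more. In WL these were 26.5% (24.8 to 28.3) and 12.5% (11.4 to 13.7). Footprints were also densest there, with 4.83 per kb in BS and 2.77 per kb in WL within 250 bp of the own summit. Denser footprints meet more often by chance, and what this adds to the share was not tested. Footprint strength also went with sharing in BS. The 1/4 of BS footprints with the most negative Wellington score (the authors' measure of footprint strength) overlapped a WL footprint in 11.7% (10.8 to 12.6) and the weakest 1/4 in 5.90% (5.27 to 6.58). In WL the corresponding shares were 18.0% (16.5 to 19.6) and 16.7% (15.3 to 18.3), whose intervals overlap.

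By pair, 774 of the 1767 (43.8%) had no overlapping footprint, 537 had 1, 303 had 2 and 153 had at least 3. Of the 1543 pairs with footprints of both tissues in the common stretch, 550 (35.6%) had none that overlapped. The highest number was 6, in 2 pairs. The pair on chromosome 1 (chr1:179746366-179752019 in BS, chr1:179746198-179751963 in WL) held 13 BS and 11 WL footprints with its summits 25 bp apart. The pair on chromosome 10 (chr10:108869238-108874767 in BS, chr10:108869253-108874773 in WL) held 17 and 11 with its summits 1 bp apart. None of these 12 overlaps had the same start and end. The pair at chr1:30684332-30692554 in BS shared 5 footprints although its summits were 3338 bp apart.

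Splitting was described over all DHSs of at least 5000 bp, since the choice of a broad partner leaves few split cases among the members. At least 2 DHSs of the other tissue were overlapped by 2.40% of all BS DHSs and 2.81% of all WL DHSs. Among those of at least 5000 bp it was 13.3% in BS (372 of 2800, 12.1 to 14.6) and 13.4% in WL (349 of 2606, 12.1 to 14.8). Wider intervals have more room to meet several DHSs, so no more is read from this difference. When both lists were cut to the 50% with the higher −log10 q-values, the shares were 4.09% in BS and 6.82% in WL. This cut also leaves fewer DHSs of the other tissue to meet, so no more is read from the lower shares. Of the members, 64 in BS (3.62%) and 84 in WL (4.76%) overlapped at least 2 DHSs of the other tissue. Of the 1034 BS DHSs without a broad WL partner, 308 (29.8%, 27.1 to 32.6) met at least 2 WL DHSs, 580 met 1 narrower DHS and 146 met none. Of the 841 WL DHSs without a broad BS partner, 265 (31.5%, 28.5 to 34.7) met at least 2 BS DHSs, 365 met 1 and 211 met none. Where there was 1 narrower partner, its median width was 4250 bp for broad BS DHSs and 4040 bp for broad WL DHSs.

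The gaps that divided a broad DHS in the other tissue were short and poor in footprints. Inside BS DHSs the 383 gaps between WL DHSs had a median of 234 bp and 80.2% were at most 500 bp. Inside WL DHSs the 371 gaps between BS DHSs had a median of 236 bp and 88.7% were at most 500 bp. The shortest gaps, 180 bp between BS DHSs and 165 bp between WL DHSs, equalled the smallest spacing in each list. In the gaps the intact tissue held 0.519 footprints per kb (0.416 to 0.639) in BS, against 1.94 per kb (1.88 to 2.00) in the parts that overlapped a WL DHS. In WL it held 0.166 per kb (0.106 to 0.25) in gaps, against 0.939 per kb (0.898 to 0.982). The summit of the intact DHS lay in a gap in 2 of 372 BS cases and in 0 of 349 WL cases, which allows a share of up to 0.860%. Short gaps leave little room for a summit, so no more is read from these counts. Broad DHSs with no DHS of the other tissue were low ones, with a median fold enrichment of 6.80 in BS and 7.42 in WL, and held 1.29 footprints per kb in BS and 0.547 in WL.

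**Figure D5:**
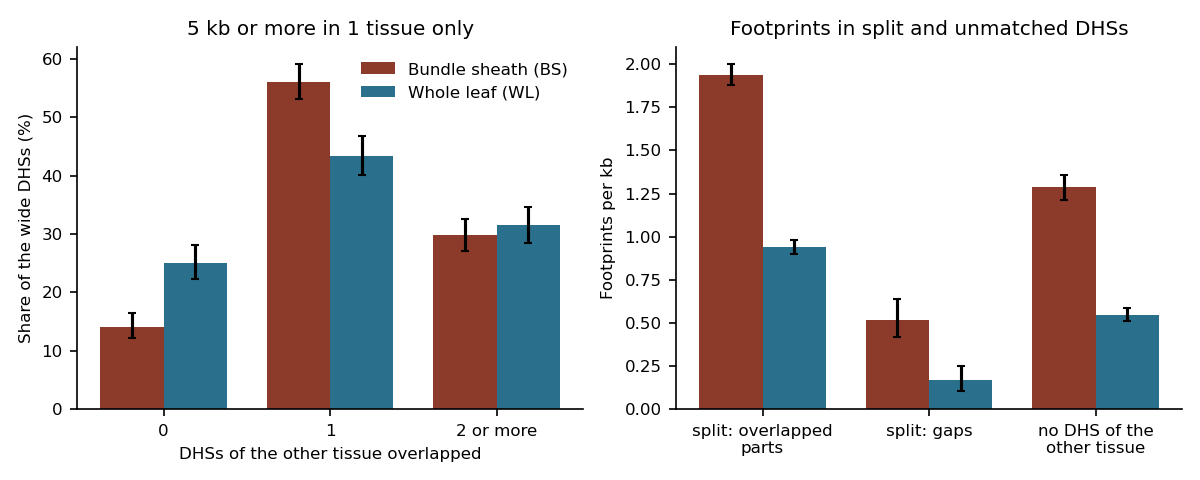
Left, share (%) of DHSs of at least 5 kb without a broad partner that overlap 0, 1 or at least 2 DHSs of the other tissue, with 95% Wilson intervals. Right, footprints per kb in the overlapped parts and the gaps of DHSs divided in the other tissue and in DHSs with no DHS of the other tissue, with exact 95% Poisson intervals. BS bars stand left of WL bars, and gaps hold 0.519 per kb in BS and 0.166 per kb in WL.

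The most divided region was a WL DHS on chromosome 6 (chr6:131211371-131217201) that overlapped 4 BS DHSs, of 499, 2032, 414 and 2457 bp. It had a fold enrichment of 19.0 and 9 footprints in WL, and the BS DHSs held 3, 5, 1 and 3. Another WL DHS on that chromosome (chr6:144308498-144318846), 10349 bp wide with 7 footprints, was met by 3 BS DHSs of 2921, 3906 and 2959 bp with 2, 4 and 4 footprints. In BS the highest number was 3. The BS DHS chr9:20874116-20882577 held 17 footprints, against 1, 3 and 0 in its WL DHSs of 1096, 5381 and 995 bp. The BS DHS chr8:130380452-130388988 met 3 WL DHSs and held no footprint in either tissue.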

How the data were processed

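DNaseI-seq lists of *Z. mays* bundle sheath (2 samples) and whole leaf (2 samples) were used. The *Z. mays* deproteinized DNA sample and the lists of footprints enriched in 1 tissue, which hold only the authors' own comparison, were not used. The authors mapped reads to AGPv3 (B73 RefGen_v3) with Bowtie2 and filtered the alignments with SAMtools. Peaks were called with MACS2, and the irreproducible discovery rate fixed how many were kept. Tool versions are not given in the sources used here. Positions are printed from 1. The fold enrichment (a ratio) and the −log10 q-value of each DHS were used as deposited. Deposited footprint lists hold the authors' Wellington score, more negative being stronger, with samples of a tissue pooled; their footprints are 11 to 25 bp long. Depth is not in these lists.

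A footprint was counted in a DHS by its midpoint. Overlaps needed 1 bp. The limit on a share at 0 is 3 counts of the total. The DHSs and lists were chosen with earlier results of these data known. Named regions were those with the longest common stretch (6 pairs), most footprints (4), most shared footprints (4), no footprint (4), largest (4) and smallest (2) summit distance, highest fold enrichment, most DHSs of the other tissue (3 per tissue) and width nearest 5000 bp, of which some are printed. A genome or annotation of AGPv3 was not used here, so no gene or sequence is given. Counting was tested on simulated lists (5 of 5 planted items recovered) and against BEDTools 2.31.1 (4 of 4 counts equal). Python 3.11.15, NumPy 2.4.6, pandas 2.3.3, SciPy 1.17.1 and matplotlib 3.10.9 were used. Neighbouring items are not independent, so intervals are too narrow.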

Additional observations from a re-analysis of the deposited data

How the results depend on the processing

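No paired analysis was possible because the samples of each tissue were combined before deposit, and for the same reason no sample could be left out. Of 63 values under alternatives, 25 stayed within the main 95% interval (counts within 1.5 times) and 38 did not. With 4000 bp as the minimum width the broad DHSs numbered 3762 in BS and 3765 in WL. Their summits in the central part were 30.9% in BS and 27.2% in WL, the end parts held 1.24 and 0.687 footprints per kb, the central parts 0.850 per kb in WL, and 10.4% of wide BS and 11.3% of wide WL DHSs met at least 2 of the other tissue. With 6000 bp the numbers were 758 in BS and 758 in WL, central summits 25.6% and 21.1%, and splits 16.3% and 15.1%. With both lists cut to the 50% with the higher −log10 q-value, which leaves fewer DHSs to meet, splits were 4.09% in BS and 6.82% in WL. With the middle and the outer 30% of chromosome length, 39.2% of BS and 39.2% of WL members were outer and 18.9% and 18.9% were middle. The central 50% of the DHS held 43.6% of BS summits and 38.0% of WL summits.

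With equal numbers of footprints, BS densities were 0.967 per kb in whole members, 0.986 in the central parts and 0.713 in the end parts, and shared footprints were 10.0% in BS and 11% in WL. With the stronger 50% of each list, the densities were 0.998, 1.01 and 0.737 per kb in BS and 0.481, 0.444 and 0.431 per kb in WL, and shared footprints were 5.95% in BS and 12.4% in WL. With an overlap of at least 50% of both footprints, 4.62% in BS and 9.44% in WL were shared. Depth limits the number of footprints, and its part in each value was not tested.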
